A study of Homo sapiens with 9 samples.

Results

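The cytosolic chaperones that hold misfolded p53 and their transcriptional regulator were followed at the mRNA level in human embryonic kidney cells expressing WT p53 or 1 of a pair of mutant forms of p53 (mut p53). The 10 genes were taken by name from a table of 78986 genes and comprise HSP90AA1, HSP90AB1, HSPA8, HSPA1A, HSPA1B, DNAJA1, DNAJB1, HSPH1, STUB1 and HSF1. RNA-seq covered 9 libraries, 3 biological replicates each of cells expressing WT p53, G245S p53 or R273H p53. The submitters' labels name the line HEK 293 and its growth protocol names HEK293T, the name the study uses for its stable lines. All 3 lines were made with lentivirus carrying p53 and were kept under puromycin at 1.5 µg/mL, so that the control line also overexpressed p53, in its WT form. HEK293T carries the SV40 large T antigen, which binds and functionally suppresses endogenous p53. Each line stands for 1 lentiviral selection, and a difference between lines made with different p53 forms cannot be told apart from a difference between selections.

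HSP70 and HSP90 are ATP-driven chaperones that act in sequence on unfolded client proteins. J-domain proteins such as DNAJA1 and DNAJB1 deliver a client to HSP70 and start its ATP cycle, nucleotide exchange factors such as HSPH1 end that cycle, and HSP90 takes over clients that are close to their folded state. The DNA-binding domain of p53 is a marginally stable client, whose fold is distorted in structural mutants such as G245S and largely kept, with a contact to DNA lost, in contact mutants such as R273H, and the ubiquitin ligase CHIP, encoded by STUB1, marks chaperone-bound p53 for degradation. HSF1, the heat shock factor, is held inactive by chaperones and drives their transcription through heat shock elements, inverted repeats of the unit GAA, when unfolded protein draws the chaperones away. The comparison of the structural with the contact mutant asks whether the mRNA of this machinery differed between cells carrying these forms.

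The libraries held 1486315 to 9667306 counts. WT replicate 3 was the shallowest at 1486315 counts and was left out of the fits by a rule on depth, with a limit of 4096044 counts, while the other 8 held at least 7325514. Levels are given as TMM-normalized CPM, read counts scaled to a common library size with the trimmed mean of M-values, and WT means are over replicates 1 and 2. As a check of the labels, the p53 targets MDM2, PHLDA3 and DDB2 were lower in both mut p53 lines (adjusted p at most 0.000848 in edgeR's quasi-likelihood test), and CDKN1A was lower without passing (adjusted p from edgeR of 0.206 for G245S and 0.685 for R273H). The epithelial keratins KRT8 and KRT18 were detected at 9.65 to 12.1 and 58.8 to 68.8 CPM in the 8 fitted libraries, while EPCAM, CDH1 and KRT19 were at or below 3.42 CPM. The kidney factors PAX2 and LHX1 were at 2.18 to 9.98 CPM, and PAX8 was at or near 0. Of 8 markers of leukocytes, endothelium, fibroblasts and hepatocytes, 7 were under 1 CPM in those libraries and COL1A1 was at 12.6 to 36.9 CPM, 0.62 higher on the log2 scale in R273H than in G245S (unadjusted p = 0.00636; edgeR's adjusted p = 0.921) with groups that overlapped. KRT18 was higher in R273H than in G245S and in WT p53 without overlap (0.14 and 0.11 on the log2 scale; edgeR's adjusted p = 0.994 and 0.953). EPCAM (1.13, unadjusted p = 0.0113; edgeR's adjusted p = 0.675) and PAX2 (0.62, unadjusted p = 0.0375; edgeR's adjusted p = 0.785) were higher in R273H than in WT p53 without overlap, and CDH1 (−0.56, unadjusted p = 0.200) was lower. WT replicate 3 stood apart, with KRT19 at 33.7, EPCAM at 14.1, KRT8 at 54.8, KRT18 at 161 and ALB at 2.81 CPM. The part of these markers in the chaperone values was not tested.

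Heat-inducible HSP70 came out as 1 gene of a near-identical pair. HSPA1B (ENSG00000204388) lies on chromosome 6 at 31827738 to 31830254 and HSPA1A (ENSG00000204389) at 31815543 to 31817994, both on the plus strand of GRCh38 and both protein-coding. Their coding sequences were 99.8% identical, and the 250 bases before their starts were 93.6% identical, whereas their 3′ UTRs were 48.4% identical. The start regions are shown because the pair shares its heat shock element there yet was recovered at very different levels, with capitals marking the letters GAANNTTC and the stretches running from 130 to 11 bases before the RefSeq starts (GRCh38.p14, plus strand, chr6:31827608-31827727 and chr6:31815413-31815532).
HSPA1B: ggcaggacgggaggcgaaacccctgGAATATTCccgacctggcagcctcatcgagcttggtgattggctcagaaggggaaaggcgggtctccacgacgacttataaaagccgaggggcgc
HSPA1A: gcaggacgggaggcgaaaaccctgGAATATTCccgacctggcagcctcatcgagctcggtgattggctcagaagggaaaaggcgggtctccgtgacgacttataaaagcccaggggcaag

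The constitutive HSP70 gene HSPA8 and both cytosolic HSP90 genes carried a longer match of 3 alternating units, GAANNTTCNNGAA or TTCNNGAANNTTC, in a RefSeq start region. These stretches set the exact match of 3 units, in capitals, beside the exact match of a pair of units in the inducible HSP70 genes. The search allowed no mismatch, so units with a changed letter are not marked, and the lengths of whole elements were not compared. The HSPA8 stretch is chr11:123062171-123062199 on the minus strand, 63 to 35 bases before the RefSeq start and within an annotated exon. The HSP90AA1 stretch is chr14:102087100-102087152 on the minus strand, before the second of its RefSeq starts and in an intron of the longer gene model. The HSP90AB1 stretch is chr6:44247768-44247853 on the plus strand, before the third of its RefSeq starts and likewise in an intron.
HSPA8: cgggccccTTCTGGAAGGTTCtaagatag
HSP90AA1: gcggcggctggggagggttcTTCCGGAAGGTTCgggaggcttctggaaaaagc
HSP90AB1: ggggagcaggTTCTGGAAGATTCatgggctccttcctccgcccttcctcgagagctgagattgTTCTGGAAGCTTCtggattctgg

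Start regions of 300 bases, from 250 before to 50 after a RefSeq start, were found for 8 of the 10 genes, 13 regions in all. The 2-unit letters, GAANNTTC or TTCNNGAA, were in 8 of the 13 regions and in 13.5% of all 35116 regions. The 3-unit letters, which contain the 2-unit letters, were in 4 of the 13 regions and in 0.49% of all regions. HSP90AB1 had a pair of 3-unit matches, beginning 165 and 112 bases before its start, and HSPA8 had a pair beginning 230 and 55 bases before. DNAJA1 had a 3-unit match beginning 3 bases after its start, DNAJB1 had 2-unit matches only, and HSPH1 had neither within this window. STUB1 was not matched. Regions on chromosome 8, where HSF1 lies, were left out of the search of the 10 genes but counted among the 35116. A match describes the letters and not a bound site.

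The structural and the contact mutant differed most in HSPA1B, which was lower in R273H than in G245S in every library. HSPA1B encodes the stress-inducible HSP70 that binds unfolded clients. Its level was 1284, 1187 and 1391 CPM in the 3 G245S libraries, 974, 997 and 935 CPM in the 3 R273H libraries and 1062 and 1029.95 CPM in WT replicates 1 and 2. The G245S libraries were the highest of all 9, and neither mutant overlapped with the other or with the fitted WT libraries. The means were 1287 ± 102 CPM (SD, n = 3) in G245S, 969 ± 31.6 CPM (SD, n = 3) in R273H and 1046 ± 22.7 CPM (SD, n = 2) in WT p53. The log2 fold change of R273H against G245S was −0.42 (standard error 0.0873, 95% interval −0.60 to −0.23), or a ratio of 0.749. In edgeR's quasi-likelihood test the unadjusted p was 0.000241, number 4 of 15614 genes by p, and the Benjamini-Hochberg adjusted p was 0.921. The difference therefore did not pass the threshold of 0.05 over all genes. In these bulk libraries a lower level in each cell and fewer cells with a high level cannot be told apart.

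HSPA1B passed the threshold under 3 of 13 alternative settings, and the size of the difference stayed close under all of them. DESeq2 with its own size factors and test, on the same libraries and genes, gave a log2 fold change of −0.41 with an adjusted p of 0.00369, and HSPA1B was the 1 gene of 15614 that it called. Without a filter on low counts edgeR gave −0.43 with an adjusted p of 0.000768, among 125 genes called. The remaining setting of the 3 takes the replicate number into the fit, and its value stands with the alternatives at the end. Over all 13 alternative settings the log2 fold change stayed between −0.47 and −0.36 and the unadjusted p was at most 0.0035, while the adjusted p ran from 0.0003 to 0.9999 over DESeq2 and edgeR. The value nearest to 0 came without G245S replicate 3, the library with the highest HSPA1B level, and the largest difference came without G245S replicate 2, the G245S library with the lowest. The plot of HSPA1B by setting places these values side by side.

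**Figure D1:**
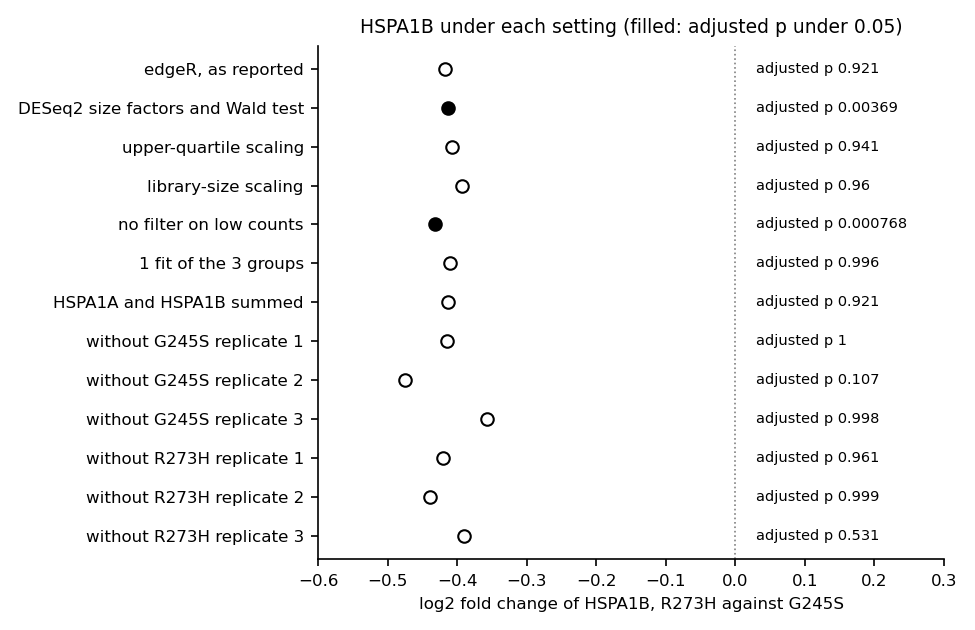
Log2 fold change of HSPA1B in R273H against G245S (horizontal axis) as reported and under 12 of the 13 alternative settings (vertical axis), with the adjusted p of each at the right. All points lie between −0.47 and −0.36, and filled points, the settings whose adjusted p is under 0.05, are DESeq2 and the fit without a filter on low counts. The setting not drawn, with the replicate number in the fit, also has an adjusted p under 0.05.

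HSPA1A, the other copy of the inducible gene, was barely counted. It held 38.75 to 57.75 deposited counts in the 8 fitted libraries, where HSPA1B held 7298.5 to 12594.5. Its level was 5.30, 5.54 and 4.80 CPM in G245S, 5.76, 7.11 and 5.70 CPM in R273H and 5.17 and 7.45 CPM in WT p53. The R273H libraries were all above the G245S libraries, the opposite order to HSPA1B, and both overlapped with WT p53. The log2 fold change of R273H against G245S was 0.23 (standard error 0.173, 95% interval −0.14 to 0.60; adjusted p = 0.994 in edgeR's quasi-likelihood test). HSPA1A made up 0.344% to 0.718% of the counts of the pair in the fitted libraries.

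The split between the copies bears a limit of the counting, since reads that match several places were divided between them. Of all 50-base windows of the annotated HSPA1B transcript, 71.6% also occurred in HSPA1A, but of those in its last 500 bases 1.33% did. For HSPA1A the corresponding shares were 75.1% and 22.2%. When the copies were summed to 1 gene before the fit, the log2 fold change of R273H against G245S was −0.41 with an unadjusted p of 0.000259 (edgeR's adjusted p = 0.921). HSPA1A was at most 0.718% of the pair in the fitted libraries, so the sum was bound to lie close to HSPA1B alone. The summed fit is therefore no check on how reads were divided and adds little to the other alternative settings. A read divided between the copies adds to both, and HSPA1A held 38.75 to 57.75 counts where HSPA1B held 7298.5 to 12594.5. The division therefore weighs more on the value of HSPA1A, which is uncertain by itself, than on that of HSPA1B.

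HSPA8 encodes the constitutive HSP70, the copy that serves unstressed cells. HSPA8 (ENSG00000109971, chromosome 11, 123057489 to 123063230, minus strand) was at 879, 993 and 919 CPM in G245S, 958, 983 and 1014 CPM in R273H and 936 and 950.3 CPM in WT p53. The mutants overlapped, and the log2 fold change of R273H against G245S was 0.075 (95% interval −0.10 to 0.25; adjusted p = 0.994 in edgeR's quasi-likelihood test). Its sign was the opposite of that of HSPA1B. Reads of 17 annotated pseudogenes of HSPA8 made up 0.553% to 4.43% of the counts of that family.

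Inducible over constitutive HSP70 was therefore set out within each library, where the scaling between libraries cancels. The log2 ratio of HSPA1A and HSPA1B together over HSPA8, in counts and not per length, was 0.55, 0.26 and 0.60 in G245S, 0.033, 0.031 and −0.11 in R273H and 0.19 and 0.13 in WT replicates 1 and 2. Every G245S library was above every fitted WT library, and every R273H library was below. WT replicate 3 was at 0.48, within the G245S range, so that with it G245S no longer stood above every WT library, while R273H stayed below all 3. These ratios are a description with no test.

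**Figure D2:**
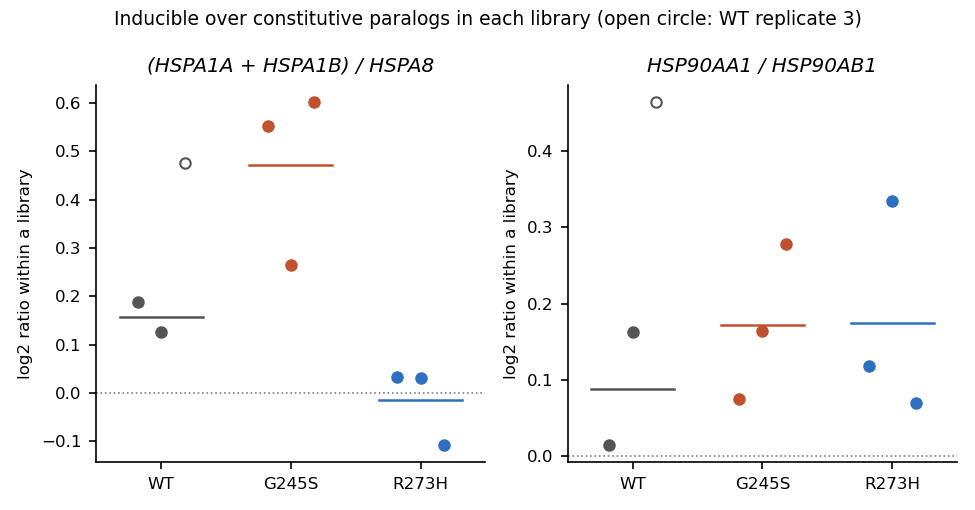
Log2 ratio of counts within a library (vertical axes) of HSPA1A and HSPA1B together over HSPA8 (left) and of HSP90AA1 over HSP90AB1 (right) in the WT, G245S and R273H libraries, with lines at the mean of the fitted libraries and an open circle for WT replicate 3. On the left the 3 G245S libraries, from 0.26 to 0.60, lie above the 3 R273H libraries, from −0.11 to 0.033, while on the right the groups overlap.

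Neither cytosolic HSP90 gene separated the mutants. HSP90AA1 encodes the stress-inducible HSP90 alpha and lies on the minus strand of chromosome 14 at 102080742 to 102139699 (ENSG00000080824). It was at 2514, 2651 and 3001 CPM in G245S, 2605, 2632 and 2565 CPM in R273H and 2517 and 2933 CPM in WT p53. The groups overlapped, and the spread within G245S (SD 251 CPM) and WT p53 (SD 294 CPM) was wider than that within R273H (SD 33.9 CPM). The log2 fold change of R273H against G245S was −0.073 (95% interval −0.27 to 0.12; adjusted p = 0.994 in edgeR's quasi-likelihood test).

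HSP90AB1 encodes the constitutive HSP90 beta and lies on the plus strand of chromosome 6 at 44246166 to 44253888 (ENSG00000096384). Its level was 2386, 2365 and 2475 CPM in G245S, 2400.2, 2086 and 2444 CPM in R273H and 2491 and 2619.6 CPM in WT p53. The mutants overlapped with each other, and all 6 mutant libraries were below both fitted WT libraries. The log2 fold change of R273H against G245S was −0.067 (95% interval −0.26 to 0.13). Against WT p53 it was −0.078 in G245S (95% interval −0.31 to 0.15; adjusted p = 0.933 in edgeR's quasi-likelihood test) and −0.14 in R273H (95% interval −0.39 to 0.098; edgeR's adjusted p = 0.958). The WT library left out, at 2123 CPM, was below 5 of the 6 mutant libraries, so the separation from WT p53 was not kept with it. The log2 ratio of HSP90AA1 over HSP90AB1 was 0.075 to 0.28 in G245S, 0.070 to 0.34 in R273H and 0.015 to 0.16 in the fitted WT libraries, ranges that overlapped. No 50-base window was shared between these transcripts, while annotated pseudogenes took 1.26% to 1.98% of the HSP90AA1 family and 0.222% to 1.27% of the HSP90AB1 family.

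Of the J-domain proteins, DNAJA1 separated the mutants without passing the threshold and DNAJB1 overlapped between them. DNAJA1 (ENSG00000086061, chromosome 9, 33025273 to 33039907, plus strand) encodes a type I HSP40 that presents clients, misfolded p53 among them, to HSP70. It was at 404, 432 and 416 CPM in G245S, 451, 456 and 453 CPM in R273H and 420.0 and 440.3 CPM in WT p53. The R273H libraries were all above the G245S and the fitted WT libraries, with an SD of 2.34 CPM among them. The log2 fold change of R273H against G245S was 0.11 (standard error 0.0748, 95% interval −0.048 to 0.27; unadjusted p = 0.158 and adjusted p = 0.994 in edgeR's quasi-likelihood test), an effect within the spread the model allows. It was positive under all 13 alternative settings, from 0.092 to 0.14, and its unadjusted p was under 0.05 in 1 of them.

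DNAJB1 encodes the type II HSP40 that is induced with HSPA1A and HSPA1B by heat. DNAJB1 (ENSG00000132002, chromosome 19, 14513789 to 14560391, minus strand) was at 110.4, 123 and 122 CPM in G245S, 111, 118 and 109.8 CPM in R273H and 113 and 116 CPM in WT p53. All groups overlapped. The log2 fold change of R273H against G245S was −0.076 (95% interval −0.24 to 0.087; adjusted p = 0.994 in edgeR's quasi-likelihood test). Its interval and that of HSPA1B, −0.60 to −0.23, overlap at their ends, and the difference between the genes was not tested. HSPH1 (ENSG00000120694, chromosome 13, 31134973 to 31162388, minus strand), the HSP110 nucleotide exchange factor of HSP70, was at 215, 195 and 225 CPM in G245S, 223, 203 and 222 CPM in R273H and 201 and 251 CPM in WT p53. The mutants overlapped at a log2 fold change of 0.020 (95% interval −0.15 to 0.19).

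The ubiquitin ligase and the regulator showed no difference past the threshold. STUB1 (ENSG00000103266, chromosome 16, 680224 to 682870, plus strand) was at 182, 203 and 189.6 CPM in G245S, 201, 203 and 205 CPM in R273H and 209 and 199 CPM in WT p53. The R273H libraries fell within 5 CPM of each other and overlapped with both other groups, at a log2 fold change of 0.075 against G245S (95% interval −0.085 to 0.23). HSF1 (ENSG00000185122, chromosome 8, 144291591 to 144314720, plus strand) was at 99.5, 107 and 115 CPM in G245S, 100.4, 100.5 and 102 CPM in R273H and 104 and 98.2 CPM in WT p53. The groups overlapped, and R273H differed from G245S by −0.092 on the log2 scale (95% interval −0.26 to 0.071; adjusted p = 0.994 in edgeR's quasi-likelihood test). The level of HSF1 mRNA does not report the activity of the protein, which is set after translation.

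**Figure D3:**
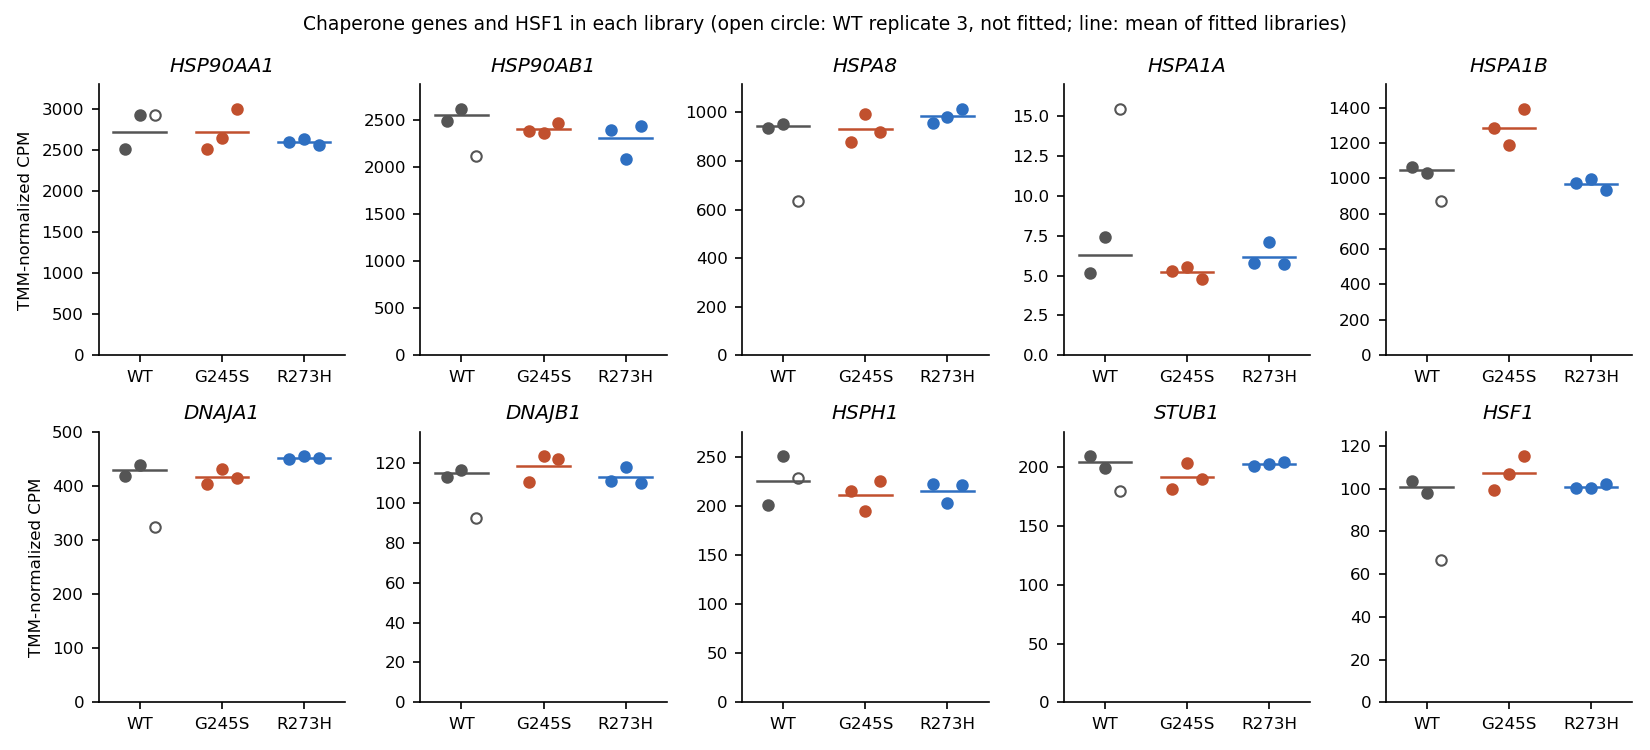
TMM-normalized CPM (vertical axes, from 0) of each of the 10 genes in the 3 WT, 3 G245S and 3 R273H libraries, with a line at the mean of the fitted libraries and an open circle for WT replicate 3. HSPA1B stands at 1187 to 1391 CPM in G245S above 935 to 997 CPM in R273H, HSPA1A lies at 4.80 to 7.45 CPM in the fitted libraries, and most other genes overlap between groups.

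Counted together, 0 of the 10 genes passed the threshold between the mutants, where edgeR called 0 of 15614 genes (0%) with 741 at an unadjusted p under 0.05 and DESeq2 called 1. HSPA1B was the 1 gene of the 10 at an unadjusted p under 0.05. The groups did not overlap for 3 of the 10, HSPA1B lower and HSPA1A and DNAJA1 higher in R273H, against 9.01% of all genes tested. By sign 5 genes were higher and 5 lower in R273H, and their median log2 fold change was −0.024 beside −0.0048 over all genes. The 9 genes other than HSPA1B had log2 fold changes between −0.092 and 0.23.

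Against WT p53 none of the 10 genes passed in edgeR or DESeq2, and HSPA1B in G245S had the smallest p among them. Of the 10 genes, 0 passed in G245S, where edgeR called 20 of 15893 genes (0.126%) and DESeq2 called 18 and 0 of the 10. At an unadjusted p under 0.05 there were 1058 genes in all and 1 of the 10. In R273H 0 passed, where edgeR called 22 of 16022 genes (0.137%) and DESeq2 called 23 and 0 of the 10. At an unadjusted p under 0.05 there were 979 genes in all and 0 of the 10. The 2 comparisons share their WT libraries and are not independent.

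HSPA1B was higher in G245S than in WT p53, at a log2 fold change of 0.31 (standard error 0.109, 95% interval 0.073 to 0.54; unadjusted p = 0.0137, adjusted p = 0.650 in edgeR's quasi-likelihood test). Its values had the same sign under all 13 alternatives, from 0.25 to 0.38, with an unadjusted p under 0.05 in 10 of them and an adjusted p from 0.292 to 1 over edgeR and DESeq2. In R273H HSPA1B differed from WT p53 by −0.11 (95% interval −0.32 to 0.0996; edgeR's adjusted p = 0.970). The shallow WT library was at 871 CPM, below every mutant library, and with it in the fit the value in G245S was 0.38 and that in R273H −0.032. No other gene of the 10 had an interval that left out 0 in either comparison.

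The groups did not overlap for 2 of the 10 genes in G245S, HSPA1B higher and HSP90AB1 lower, against 22.1% of all genes tested. In R273H the groups did not overlap for 4 of the 10, HSP90AB1 and HSPA1B lower and HSPA8 and DNAJA1 higher, against 20.7% of all genes. With 3 libraries against 2 such separations are frequent among all genes, and the counts of members are read against these shares. HSPA8 was 0.064 higher in R273H than in WT p53 (95% interval −0.14 to 0.27), and DNAJA1 was 0.077 higher (95% interval −0.12 to 0.27), both on the log2 scale and neither past the threshold. The medians over the 10 genes were −0.024 in G245S and −0.022 in R273H, beside 0.0034 and 0.0023 over all genes.

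**Figure D4:**
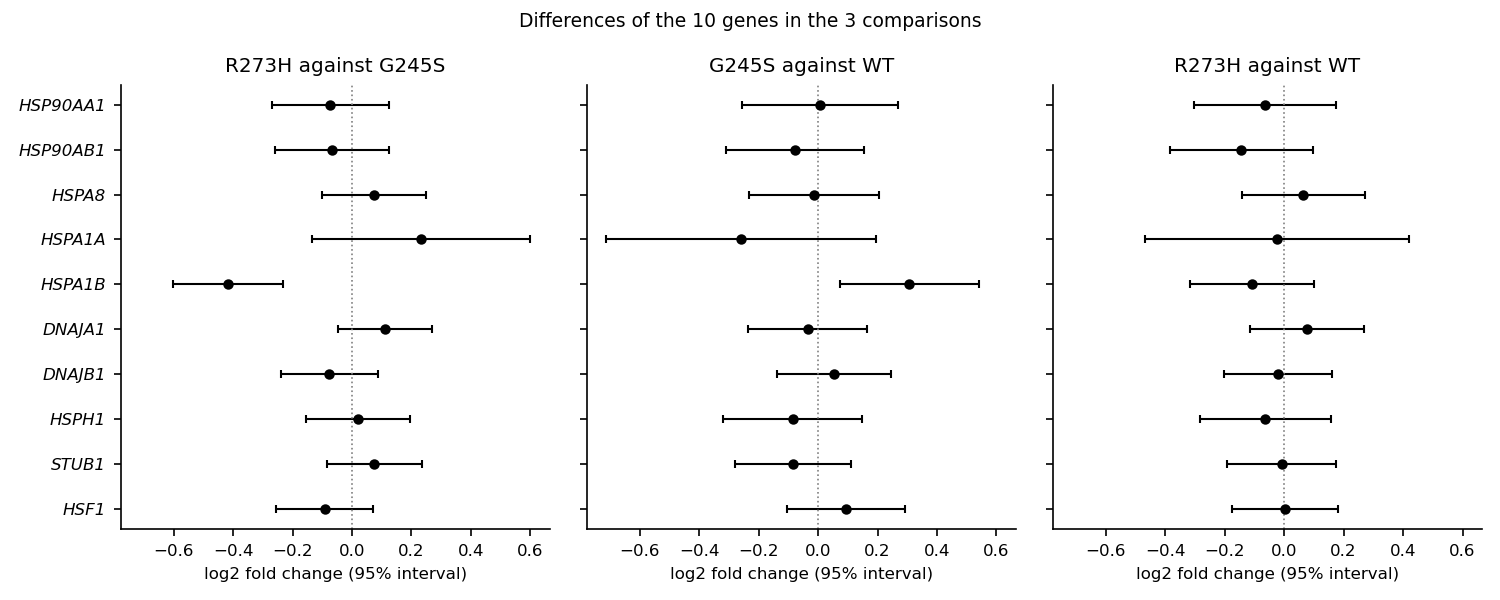
Log2 fold change (horizontal axes) of the 10 genes with its 95% interval from edgeR's quasi-likelihood fit, for R273H against G245S, G245S against WT p53 and R273H against WT p53. The interval leaves out 0 only for HSPA1B, at −0.42 between the mutants and at 0.31 in G245S against WT p53, and HSPA1A has the widest intervals.

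The shallow WT library differed from the other WT libraries in the members themselves. WT replicate 3 was below both others for 7 of the 10 genes, among them HSPA8 at 637, DNAJA1 at 324 and HSF1 at 66.8 CPM. HSPA1A was above both at 15.5 CPM, from 22.5 deposited counts, and HSP90AA1 and HSPH1 lay between them at 2929.65 and 228 CPM. With this library in the fits, 0 of the 10 genes passed in either comparison with WT p53.

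The rest of the chaperone network was read from 8 lists of genes written from general knowledge, and edgeR and DESeq2 called 0 of their genes in each of the 3 comparisons, with 88 tested between the mutants, 88 for G245S and 90 for R273H against WT p53. At an unadjusted p under 0.05 edgeR had 3 of them between the mutants (RPAP3, CRYAB and CLPB), 3 between G245S and WT p53 (BAG1, BAG3 and HSPA4L) and 2 between R273H and WT p53 (BAG1 and HSPA4L), where CRYAB, BAG1 and BAG3 are named after their values were seen. The 20 co-chaperones of HSP90 had a median difference of 0.0089 between the mutants on the log2 scale, with 11 higher and 9 lower in R273H. RPAP3, which links HSP90 to the assembly of RNA polymerases, was at 38.1, 37.1 and 36.1 CPM in G245S and 43.8, 44.01 and 40.4 CPM in R273H, without overlap, at 0.19 on the log2 scale (unadjusted p = 0.0290; edgeR's adjusted p = 0.994). RPAP3 was named by the rule on the largest values of a list between the mutants.

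Among the cofactors of HSP70, 14 of 15 genes were tested, with 9 higher and 5 lower in R273H than in G245S and a median of 0.011. DNAJB6, a J-domain protein that holds back aggregation, differed by 0.11 and HSPA4L, an HSP110 exchange factor, by 0.096, both with overlap. HSPA4L was at 49.6 and 55.0 CPM in WT p53, above 38.4, 38.1 and 48.4 CPM in G245S and 48.3, 43.3 and 42.3 CPM in R273H. It had log2 fold changes against WT p53 of −0.32 in G245S (unadjusted p = 0.0123; edgeR's adjusted p = 0.621) and −0.22 in R273H (unadjusted p = 0.0352; edgeR's adjusted p = 0.782). The shallow WT library had 51.3 CPM, also above all 6 mutant libraries.

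Genes that HSF1 drives after heat, outside the 10, were read by sign and median, and a common shift was not tested. Of 20 genes, 19 were tested between the mutants, with 7 higher and 12 lower in R273H and a median of −0.012. Against WT p53, 13 were higher and 6 lower in G245S (median 0.018), and 10 were higher and 10 lower in R273H (median −0.0014). The largest value, 0.70 (unadjusted p = 0.0236; edgeR's adjusted p = 0.994), was that of CRYAB, the small chaperone alpha-B crystallin. CRYAB was at 1.83, 2.96 and 2.34 CPM in G245S, 3.34, 5.33 and 2.97 CPM in R273H and 2.76 and 4.11 CPM in WT replicates 1 and 2. The shallow WT replicate 3, left out of the fits, was at 25.3 CPM. SERPINH1, the collagen chaperone HSP47, was at 157, 147 and 151 CPM in G245S and 144, 142 and 132 CPM in R273H, without overlap, at −0.13 (unadjusted p = 0.107). HSPB1, the small heat shock protein HSP27, was at 209.6, 209.4 and 222 CPM in G245S and 216, 192 and 229.95 CPM in R273H, at −0.014 (95% interval −0.19 to 0.16). The inducible small chaperone thus overlapped between the mutants where HSPA1B did not, a difference between genes that was not itself tested. The heat shock factor HSF2 was likewise near 0 at −0.028, and the HSF1-binding protein HSBP1 was at 0.051. HSF4, at means of 1.90 CPM in G245S and 2.13 CPM in R273H, was at 0.15 with a wide 95% interval (−0.48 to 0.78).

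Other chaperone families, in the cytosol and in other compartments, were read alongside. The cytosolic CCT and prefoldin genes, which fold actin and tubulin, had a median of 0.024 between the mutants with 11 of 14 higher, and their largest values were 0.12 for PFDN1 and −0.11 for PFDN4. The 15 chaperones of the endoplasmic reticulum had a median of −0.021 between the mutants, with CRELD2 at 0.15 and SDF2L1 at 0.14. Against WT p53 the same list had medians of −0.079 in G245S, with 9 of 15 lower, and −0.061 in R273H, with 13 of 15 lower, and 0 called in either. The 12 mitochondrial chaperones and proteases had a median of −0.016 between the mutants. CLPB, a mitochondrial disaggregase, was at 69.4, 68.4 and 69.2 CPM in G245S and 62.9, 64.8 and 54.4 CPM in R273H, without overlap, at −0.19 (unadjusted p = 0.0321; edgeR's adjusted p = 0.994), and the protease subunit CLPP was at 0.070.

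**Figure D5:**
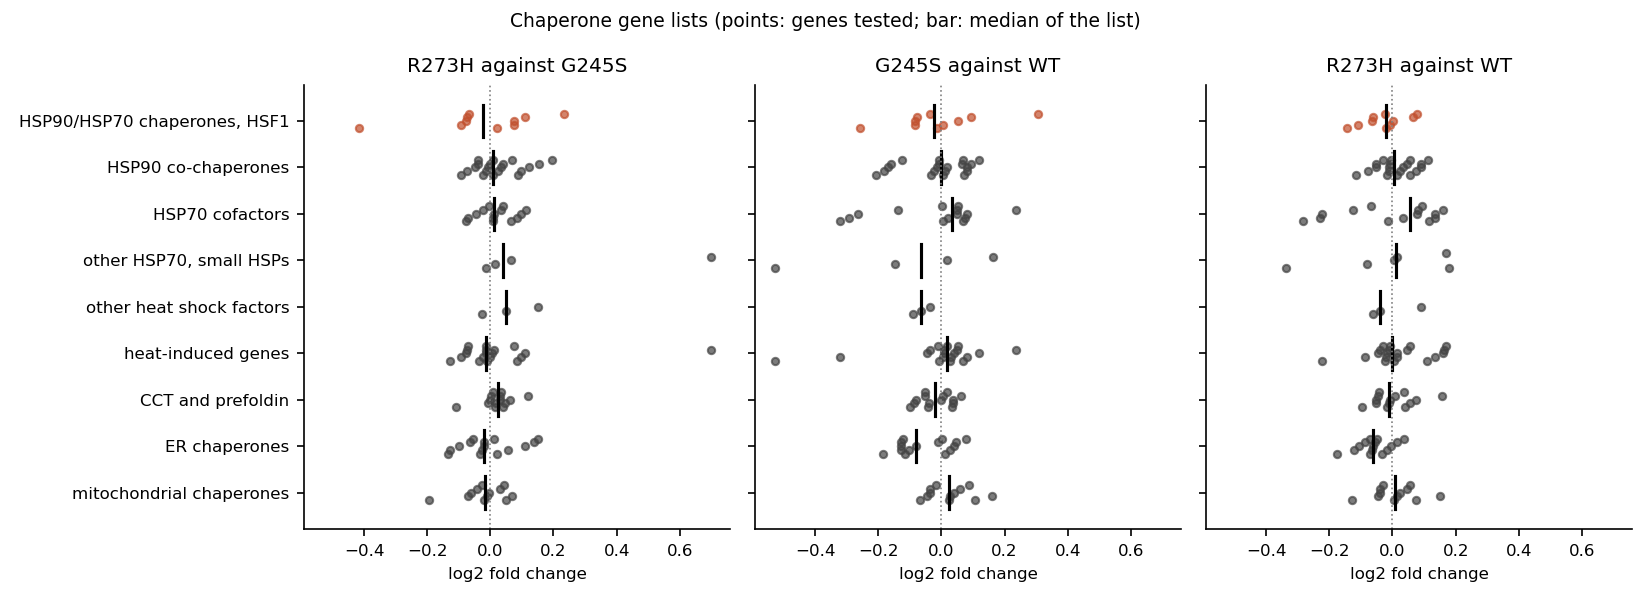
Log2 fold change (horizontal axes) of each tested gene in the 10 chaperone genes (top, coloured) and in 8 further chaperone lists, for R273H against G245S, G245S against WT p53 and R273H against WT p53, with a bar at the median of each list. The medians lie between −0.079 and 0.056, and HSPA1B is the lowest of the coloured points between the mutants at −0.42.

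Across the 8 fitted libraries the mean of the chaperones varied by little, while single genes moved in opposite directions within it. HSPA1B ran against DNAJA1 (Pearson r = −0.84), HSPA8 (−0.67), HSPA1A (−0.59) and HSPH1 (−0.097). It ran with DNAJB1 (0.49), HSP90AA1 (0.36) and HSP90AB1 (0.14). Of the members that are not chaperones, HSF1 ran with HSPA1B (0.66) and STUB1 ran against it (−0.72). All are given as a description, and the differences between groups enter them. The mean of the 8 chaperone genes, each centred on its own mean log2 CPM, ran from −0.053 in WT replicate 1 to 0.090 in WT replicate 2, so that both ends of its range lay within WT p53. The G245S libraries were at −0.034, 0.0024 and 0.044 and the R273H libraries at −0.021, −0.0069 and −0.021. Among 7281 genes with a mean of at least 20 CPM, those that followed this mean most closely were RABL6 (Pearson r = 0.94), TMEM97 (0.93), DHX36 (0.92), STRN (0.92) and ITSN2 (0.90). These are the highest of many values over 8 libraries that share 1 normalization, and they are given as a description.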

How the data were processed

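RNA-seq was read from 9 libraries of stable HEK293T lines. The authors filtered reads with fastp 0.24.0, aligned them to GRCh38 with STAR 2.7.11, sorted them with SAMtools 1.22.1, collapsed PCR duplicates (UMICollapse) and counted exons and 3′ UTRs by strand with featureCounts (Subread 2.1.1), dividing reads with several matches. The deposited counts are expected counts, not normalized, and 9 columns of CPM that the authors derived from them were not tested here. The 10 genes and all lists were chosen with earlier results of these data known. Counts were rounded to whole numbers, filtered with filterByExpr and scaled with TMM, and each comparison was fitted on its groups in edgeR 4.0.16 (R 4.3.3) by its quasi-likelihood test, with p-values adjusted by Benjamini-Hochberg over all genes tested and a threshold of 0.05. DESeq2 1.42.0 was an alternative, beside other scalings, no filter, 1 fit of the 3 groups, a replicate block, the summed HSPA1 pair, each library left out and all 3 WT libraries. Intervals are 95% intervals of the log2 fold change. CPM values come from 1 normalization over all 9 libraries, with a floor of 3 counts per library that covers counting error only. Nothing in the labels says that the replicates came from separate derivations of a line, so p-values measure the spread between these samples. No replicate pair agreed within sampling noise. Named genes were all 10 members, any list gene called, the largest 2 of each list between the mutants at a mean of at least 20 CPM, the 5 genes closest to the chaperone mean and 4 p53 targets. One gene that this rule names is not reported here. Start regions are from RefSeq (GRCh38.p14), and gene models, whose identifiers and symbols the table pairs itself, are from GENCODE. Scripts used version 1.17.8 of data.table, Python 3.11.15, numpy 2.4.6, pandas 2.3.3, Biopython 1.88 and matplotlib 3.10.9 and were tested on simulated data.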

Additional observations from a re-analysis of the deposited data

How the results depend on the processing

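Between the mutants the count of the 10 genes past an adjusted p of 0.05 was 0 in edgeR as reported and 1, HSPA1B, under DESeq2 and without a filter on low counts. With the replicate number as a block (replicate block) it was also 1, with HSPA1B at −0.41 and edgeR's adjusted p = 0.0003. Deviations of same-numbered libraries correlated at 0.39, 0.49 and 0.059 between the mutants, and those of different-numbered libraries at −0.44 to 0.15. Replicates 1 and 2 but not 3 correlated best with their own number. The fit as reported had no replicate term, and these values do not settle whether the libraries are paired. With 2 fitted WT libraries such correlations mirror each other, which leaves fewer separate values against WT p53. Same-numbered libraries correlated there at −0.26 and −0.39 for G245S and at −0.42 and −0.21 for R273H, all below 0. Pairing itself was not tested. The cause of these differences was not tested. In both comparisons with WT p53 the count was 0 under every alternative tried. Over all genes, edgeR called 125, 144 and 93 genes without a filter and 59, 76 and 47 with the replicate block, for R273H against G245S, G245S against WT p53 and R273H against WT p53. In G245S against WT p53 it called 10 with all 3 WT libraries, 10 without G245S replicate 3, 13 without WT replicate 2 and 30 without G245S replicate 2, beside 20 as reported. Between the mutants it called 3 without G245S replicate 2 and 1 without R273H replicate 3.

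Values close to 0 changed sign. Between the mutants, leaving out 1 library gave log2 fold changes of −0.12 to 0.0030 for HSP90AA1 and −0.039 to 0.066 for HSPH1. In G245S against WT p53 the ranges were −0.096 to 0.12 for HSP90AA1, −0.059 to 0.021 for HSPA8, −0.50 to 0.016 for HSPA1A and −0.23 to 0.078 for HSPH1. In R273H against WT p53 they were −0.17 to 0.047 for HSP90AA1, −0.27 to 0.25 for HSPA1A, −0.21 to 0.10 for HSPH1, −0.046 to 0.029 for STUB1 and −0.037 to 0.043 for HSF1. With all 3 WT libraries HSP90AA1 was at −0.036, HSPA8 at 0.14 and DNAJA1 at 0.072 in G245S, and DNAJB1 at 0.045 and STUB1 at 0.036 in R273H. With the replicate block HSP90AA1 was at −0.065 in G245S, and HSPA1A at 0.041 and HSF1 at −0.0038 in R273H. One fit of the 3 groups gave −0.0016 for HSP90AA1 in G245S, library-size scaling gave 0.0015 for DNAJB1 and 0.014 for STUB1 in R273H, and no filter gave −0.0026 for HSF1 in R273H. Leaving out a WT library left 1, which was assumed to vary like the mutant libraries. HSPA1A has no value of its own where the pair was summed. At 38.75 to 57.75 counts the depth limits HSPA1A, whose 95% interval in G245S against WT p53 ran from −0.71 to 0.20 on the log2 scale.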
